A study of Mus musculus with 278 samples.

Results

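The stress and simple-epithelium keratins are 8 genes, Krt6a, Krt6b, Krt16, Krt17, Krt7, Krt8, Krt18 and Krt19, chosen by name from the 14145 genes of a single-cell TPM table. All 8 were present, among 41 keratin genes in the table. TPM (the transcript share of a gene) divides reads by gene length and scales every cell to the same sum of 1000000, so levels of different genes can be set side by side within a cell. A gene was called detected in a cell where its TPM was over 1.

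The cells were mouse keratinocytes isolated from adult dorsal skin, grown as a co-culture of 9 parts wild-type cells and 1 part K14ΔNβ-cateninER cells. In the latter the keratin 14 promoter drives a stabilised beta-catenin that is switched on by 4-hydroxy-tamoxifen (4-OHT). Treated co-cultures received 200 nM 4-OHT for 24 h and untreated ones the solvent DMSO, and transgenic cells were present in both and were not told apart here. The library names form 2 series, AG with 66 untreated and 64 treated cells and GHA501A with 71 untreated and 69 treated cells, or 270 of the 278 labelled cells. These 4 library sets, not the cells, were taken as replicates, 2 per treatment and 2 per series. Nothing in the labels says that they were separate cultures, so p-values cover no spread beyond these sets. Each fit left 1 degree of freedom for error, so much of a gene's error was drawn from the spread of all genes. Series and everything else that differed between the captures cannot be told apart.

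Keratins are the intermediate filament proteins of epithelial cells, and each filament is built from an acidic type I and a basic type II chain, so that cells normally make partners of both types. Krt5 (type II) and Krt14 (type I) form the network of basal keratinocytes. Krt6a and Krt6b (type II) with Krt16 and Krt17 (type I) are found in hair follicle epithelium and are switched on in interfollicular epidermis after wounding and in culture. Krt7 and Krt8 (type II) with Krt18 and Krt19 (type I) are the keratins of simple, single-layered epithelia, and in skin they are known from sweat glands, Merkel cells and, for Krt19, cells of the hair follicle bulge.

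All cells carry the label of keratinocytes, and the data went against it in one series. Each cell was scored by the mean log2(TPM + 1) of 9 measured keratinocyte markers minus that of 8 measured fibroblast markers, with none of the 8 keratins among them, and classed as keratinocyte-marker-high above 1 and fibroblast-marker-high below -1. In AG, 129 of 130 cells were keratinocyte-marker-high. In GHA501A only 20 of 140 were, 8 untreated and 12 treated, while 117 were fibroblast-marker-high, with collagen I and III genes high. Krt14 had medians of 1.89 and 6.38 TPM in untreated and treated fibroblast-marker-high cells but exceeded 100 TPM in 1 of 62 and 7 of 55, and Krt5, with medians of 0 and 2.91, in 0 and 3. Over all cells 12 scores lay within 1 of a class limit. The median cell had between 6008 and 6392 genes detected in the 4 sets, and single cells between 2538 and 7592. Itgb4, a hemidesmosome integrin of basal keratinocytes, was listed at 0 in every AG cell although the other keratinocyte markers were high there. Plec, the linker of keratin filaments to hemidesmosomes, was detected in 2 of 66 and 2 of 64 AG cells against 8 of 8 and 11 of 12 keratinocyte-marker-high GHA501A cells, so that a low value in 1 series may not be a low transcript level.

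The sequences limit how far some members can be separated. The authors discarded reads that mapped to several places, and Krt6a and Krt6b lie next to each other on chromosome 15 (GRCm38, minus strand; chr15:101689910-101694307 and chr15:101676023-101680287 in GENCODE release M21) with 97.8% of their coding bases the same, 37 of 1662 aligned bases being different. The longest run without a difference was 280 bases. Of all 100-base windows of the transcript, the length of a read, 47.5% in Krt6a and 30.6% in Krt6b also occurred in the transcript of another gene. Windows shared by Krt6a and Krt6b with each other were 29.5% and 30.1%. The windows stand for single reads, and how many the other read of a pair would place was not tested. The windows of 60 coding bases, from coding base 817 to 876, in which this pair differed most are shown with the 10 different bases in capitals, followed by the start, from base 34 to 93, of the longest run that is the same in both.
Krt6a, bases 817 to 876: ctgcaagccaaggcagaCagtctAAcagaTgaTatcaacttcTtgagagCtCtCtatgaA
Krt6b, bases 817 to 876: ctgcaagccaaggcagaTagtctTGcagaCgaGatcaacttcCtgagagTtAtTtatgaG
Krt6a and Krt6b, bases 34 to 93: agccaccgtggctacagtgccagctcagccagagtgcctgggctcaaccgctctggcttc

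Read pairs that fall inside that run could be assigned to neither gene, and the levels of Krt6a and Krt6b are therefore uncertain. Fewer windows were shared by Krt16 (chr11:100246091-100248902, minus strand), 24.3%, most of them with Gm11597 and some with Krt14. For Krt8 (chr15:101996698-102004482, minus strand) 17.1% were shared, nearly all with Krt8-ps. Windows were matched on either strand without comparing gene positions. A transcript overlapping a member at the same place would count as shared although its reads map once, and how many reads were lost was not tested. The coding sequences of Krt16 and Krt14 were 85.5% the same, and their longest run without a difference, from coding base 282 to 415 of Krt16, is longer than a read.

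No window was shared by Krt17 (chr11:100256217-100261029, minus strand), Krt19 (chr11:100140810-100148665, minus strand), Krt7 (chr15:101411043-101430313, plus strand) or Krt18 (chr15:102028180-102032027, plus strand). Krt18, a type I gene, stands beside the type II gene Krt8 on chromosome 15, apart from the other type I genes on chromosome 11.

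Among the stress keratins of the AG series, Krt17 was the most abundant. Its TPM in untreated AG cells ran from 679 through a median of 13782 to 51060, and in treated AG cells from 43.9 through 14922 to 63360, so no AG cell lacked it. It was the highest of the 8 in 57 of 66 untreated and 58 of 64 treated AG cells. Krt6a reached 0, 4252 and 21669 TPM (lowest, median, highest) in untreated and 2.04, 2936 and 29128 in treated AG cells, and was detected in 65 of 66 and 64 of 64. Krt6b, the close copy, lay lower, with medians of 940 and 780 TPM and highest values of 4869 and 10948. Krt16, often named together with Krt6 and Krt17, had a median of only 356 and 337 TPM, with highest values of 2119 and 2170, and was detected in 63 of 66 and 62 of 64 cells. The values of untreated and treated AG cells overlapped broadly for each of these 4 genes.

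The simple-epithelium keratins were expressed in the same AG cells, with the exception of Krt7. Krt18 had medians of 1273 and 1215 TPM with highest values of 12148 and 7710, and its partner Krt8 medians of 933 and 807 with highest values of 7127 and 4766. Krt8 was detected in 64 of 66 and 61 of 64 cells and Krt18 in 63 and 60. Krt19, the smallest keratin, had medians of 287 and 335 TPM and was detected in 62 of 66 and 61 of 64 cells. Krt7 was at a median of 0 in all 4 sets. It was detected in 18 of 66 untreated AG cells (27.3%, 95% Wilson interval 18% to 39%) and 15 of 64 treated ones (23.4%), with at most 113.5 and 237 TPM. The interval covers the counting of cells only, and TPM carries no depth from which to judge a low value.

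The set means put the AG levels in the order Krt17, Krt6a, Krt18, Krt8, Krt6b, Krt16, Krt19 and Krt7. On the scale of log2(mean TPM of a set + 1) the means over the 2 AG sets were 14.15 ± 0.12 (SD, n = 2) for Krt17, 12.16 ± 0.05 for Krt6a, 10.98 ± 0.19 for Krt18, 10.50 ± 0.16 for Krt8, 10.19 ± 0.18 for Krt6b, 8.85 ± 0.16 for Krt16, 8.79 ± 0.36 for Krt19 and 3.22 ± 0.10 for Krt7. Neighbours in this order did not overlap between the 2 sets, except Krt16 and Krt19, which did. For comparison, Krt14 stood at 12.47 ± 0.13 and Krt5 at 10.73 ± 0.14. Krt17 was thus above Krt14, and Krt8 was close to Krt5. In the median AG cell the 8 genes made up 78.0% (untreated) and 77.2% (treated) of all keratin TPM. Most AG cells carried nearly the whole set, since 57 of 66 and 56 of 64 had at least 7 of the 8 genes detected.

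**Figure D1:**
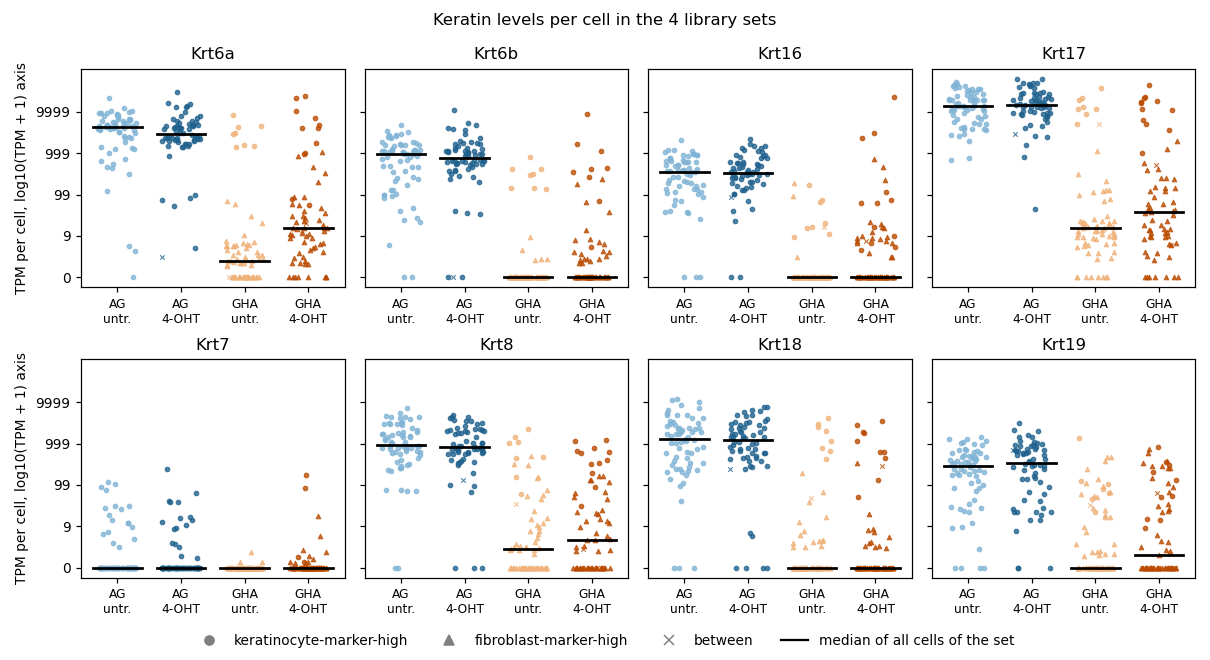
TPM of each of the 8 keratins in every cell (log10(TPM + 1) axis) by library set, with circles for keratinocyte-marker-high cells, triangles for fibroblast-marker-high cells, crosses for cells between and a black bar for the median of all cells of the set. Krt17 sits highest in both AG sets (medians 13782 and 14922 TPM), Krt7 has a median of 0 throughout, and in GHA501A the high values belong mostly to the few circles.

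Both partners of the simple-epithelium pair were detected in most AG cells. Krt8 and Krt18 were both detected in 63 of 66 untreated AG cells (95.5%) and 59 of 64 treated ones (92.2%), and 1 partner alone was detected in 1 and 3 cells. The log2 ratio of Krt8 to Krt18 had a median of -0.19 in untreated and -0.37 in treated AG cells, with quartiles of -1.19 to 0.60 and -1.12 to 0.30, and 32 of 63 and 36 of 59 cells with both genes lay within a 2-fold ratio. In keratinocyte-marker-high GHA501A cells the medians were lower, -1.38 and -0.88, with Krt8 below Krt18 in 8 of 8 untreated and 8 of 10 treated cells with both. The Spearman rho of Krt8 with Krt18 was 0.63 over 66 untreated AG cells and 0.76 over 64 treated ones. For the basal pair Krt5 and Krt14 rho was 0.54 and 0.74. Between stress and simple-epithelium members it ran from 0.08 (Krt8 with Krt17, untreated) to 0.46 (Krt6a with Krt8 or Krt18, treated) over the 4 pairs computed, and the treated values of Krt6a with Krt8 or Krt18 lay above some within a group, such as 0.32 for Krt8 with Krt19. These correlations across cells are descriptions only, because cells of a set share its library preparation and TPM of 1 gene lowers that of all others.

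Stress keratins were found in the same cells too, but at unequal levels. Krt6a and Krt16 were both detected in 62 of 66 (93.9%) and 62 of 64 (96.9%) AG cells, and Krt6a and Krt17 in 65 and 64. Krt6a exceeded Krt16 by a median log2 ratio of 3.31 in untreated and 2.97 in treated cells, whereas it was below Krt17 by -1.81 and -2.65. The type I partners Krt16 and Krt17 had a rho of 0.68 and 0.60 with each other, and Krt6a with Krt17 0.34 and 0.36. The highest rho among members was that of Krt6a with Krt6b, 0.83 and 0.96, and this is the pair with shared sequence.

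Summed over the 8 genes, type I outweighed type II. The log2 ratio of Krt6a, Krt6b, Krt7 and Krt8 to Krt16, Krt17, Krt18 and Krt19 had a median of -1.43 in untreated and -1.95 in treated AG cells, and type I was higher in 57 of 66 and 59 of 64. With all 20 type II and 20 type I keratin genes summed, the medians were -1.56 and -1.95. In the mean AG cell, type II members came to 7317 TPM without and 7083 with 4-OHT, and type I members to 20100 and 22167, most of it Krt17. Shared windows were found in Krt6a, Krt6b, Krt8 and Krt16 but not in Krt17, and the part of discarded reads in this ratio was not tested.

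**Figure D2:**
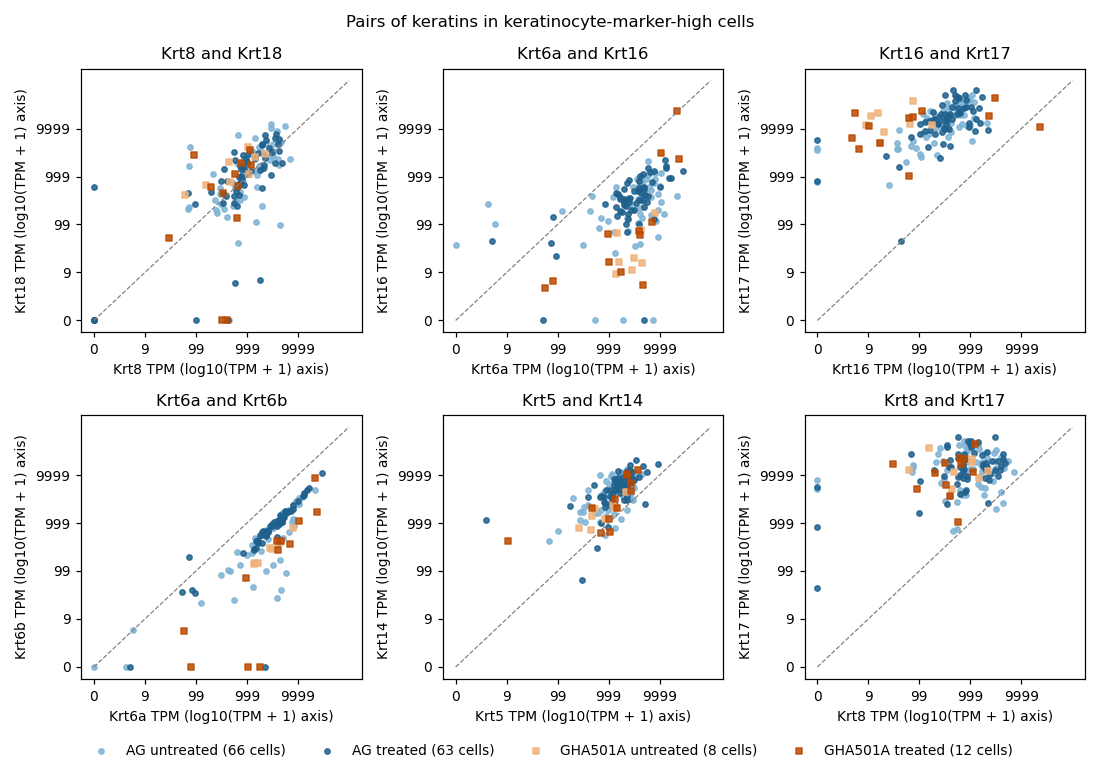
TPM of 6 pairs of keratins in keratinocyte-marker-high cells (log10(TPM + 1) on both axes, 1 point per cell, coloured by library set, dashed line for equal levels). Krt8 and Krt18 lie on both sides of the line of equal levels in AG and mostly on the Krt18 side in GHA501A, Krt6a and Krt6b form a narrow band in treated AG cells and a wider one in untreated AG cells, with GHA501A cells offset towards Krt6a, Krt16 lies below Krt6a and Krt17 in most cells, and Krt8 with Krt17 shows a loose cloud (rho 0.08 and 0.27 in the AG sets).

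The ratio of Krt6a to Krt6b within a cell differed between the series. Its log2 had quartiles of 1.79 to 2.60 around a median of 1.96 in untreated AG cells and of 1.71 to 2.03 around 1.85 in treated AG cells. In keratinocyte-marker-high GHA501A cells it was 3.36 in the 8 untreated, where all values lay between 3.20 and 3.46, and 3.64 in the 9 treated cells with both genes detected. Ratios over 3 were found in 13 of 64 and 0 of 61 AG cells with both genes and in 8 of 8 and 8 of 9 GHA501A cells. Gm5414, a neighbour whose coding sequence is 86.4% the same as that of Krt6a, had medians of 99 and 95 TPM in AG and 4.27 and 7.87 in those GHA501A cells. The part of read assignment in this difference was not tested.

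**Figure D3:**
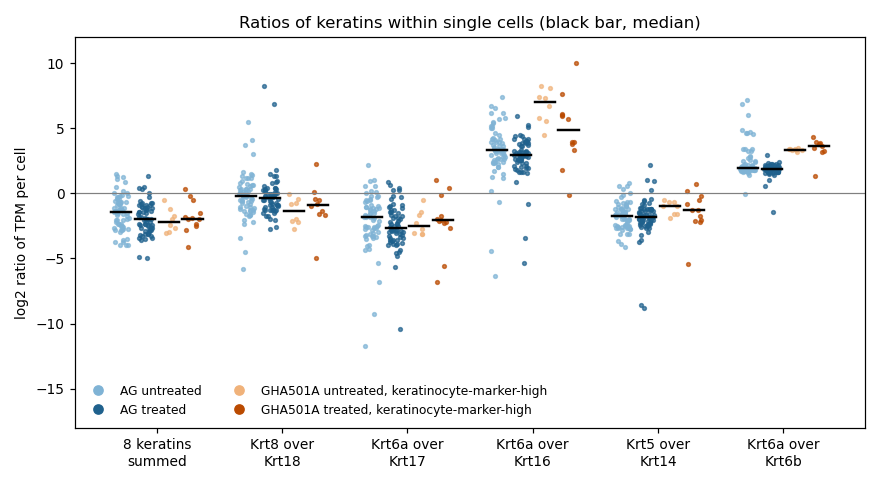
log2 ratio of TPM within single cells for the summed type II over type I members and for 5 pairs of keratins (1 point per cell, colour for the library set, black bar for the median, line at 0 for equal levels). The summed ratio is below 0 in most cells (medians -1.43 and -1.95 in AG), and the Krt6a over Krt6b ratio is higher in GHA501A (3.36 and 3.64) than in AG (1.96 and 1.85).

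The genes whose pattern over AG cells was most like that of a member were found among 9400 genes by Spearman rho averaged over the 2 AG sets, the members themselves left out. Krt6b and Krt6a ran most closely with Gm5414 (0.92 and 0.81), followed for Krt6a by Krt5 (0.55) and Krt14 (0.53) and for Krt6b by Sfn (0.60), which encodes the epithelial protein 14-3-3 sigma, and Rab25 (0.54), a small GTPase of epithelial vesicle traffic. Krt16 was most like Krt14 (0.79), Krt42 (0.55) and Gm5414 (0.52), and Krt17 most like its neighbour Krt42 (0.81), Krt14 (0.57) and Sfn (0.53). The simple-epithelium members had weaker likenesses. Krt18 was nearest to Cldn7 (0.54), a tight junction claudin, Wfdc2 (0.52) and Cystm1 (0.52), and Krt19 to Cystm1 (0.53), Ccdc12 (0.47) and Rab25 (0.46). Krt8 was nearest to Krt81 (0.52), Tmod3 (0.48) and Ccdc12 (0.44), and Krt7 to Cldn6 (0.41), with the complement gene C3 (0.37) also among its nearest. In each case 66 and 64 cells entered, and several of these genes are close sequence relatives of the member.

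In GHA501A, where the cells were of both classes, the same ranking over 9811 genes returned epithelial genes. Krt6a was most like Fgfbp1 (0.63), Sfn (0.62) and Krt14 (0.61), Krt6b like Gm5414 (0.68), Lypd3 (0.66) and Dmkn (0.64), Krt16 like Lypd3 (0.71) and Dsp (0.65), and Krt17 like Sfn (0.66), Dsp (0.61) and Krt14 (0.60). Krt8 had Cldn4 (0.54) and the E-cadherin gene Cdh1 (0.54) among its nearest, and Krt18 was most like Lypd3 (0.61), Sh2d5 (0.59) and Cldn4 (0.57). Krt19 stood apart with low values, Urah (0.42), Lama3 (0.38) and S100a16 (0.38). Krt7 was detected in too few GHA501A cells to be ranked.

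When every cell was counted, the mean over the sets of a series was lower in GHA501A for all 8 members, and 6 of them passed the test. Krt17 had medians of 14.5 and 37.6 TPM in untreated and treated GHA501A cells, Krt6a of 1.53 and 14.3 and Krt8 of 1.85 and 3.59. Krt6b, Krt16, Krt18 and Krt7 had a median of 0 in both sets, and Krt19 of 0 and 0.999. The highest GHA501A cells nonetheless reached AG levels, with 43669 TPM of Krt17, 23830 of Krt6a and 4058 of Krt18. With limma on the set means, 10.8% of 12355 genes were called higher in AG, 18.2% lower and 29% in either direction, at an adjusted p under 0.05 and an absolute log2 fold change over 0.5, and 6 of the 8 members were among those called higher. The log2 fold changes were 3.74 for Krt6b (SE 0.59, adjusted p = 0.013), 3.64 for Krt8 (SE 0.33, adjusted p = 0.0029), 3.29 for Krt18 (SE 0.33, adjusted p = 0.0036), 3.0 for Krt17 (SE 0.33, adjusted p = 0.0048), 2.74 for Krt6a (SE 0.52, adjusted p = 0.021) and 2.66 for Krt19 (SE 0.33, adjusted p = 0.0062). Krt16 (2.75, SE 1.26, adjusted p = 0.18) and Krt7 (2.01, SE 0.67, adjusted p = 0.091) did not pass in this limma fit. The median of the 8 was 2.88 and of all genes tested -0.01.

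The series differed in cell class as well. The difference of Col1a1, a fibroblast collagen, was -6.702 and that of Krt14 3.69 on the same log2 scale, and the part of cell class in the members' values was not tested in this fit. Leaving out 1 set at a time gave differences of 3.52 to 3.75 for Krt8, 3.16 to 3.43 for Krt18, 2.75 to 3.26 for Krt17 and 2.40 to 2.91 for Krt19. The ranges were wider for Krt6a (1.91 to 3.56), Krt6b (2.55 to 4.92), Krt7 (0.84 to 3.17) and Krt16 (0.05 to 5.44). These fits leave 1 set in a series and have no block.

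**Figure D4:**
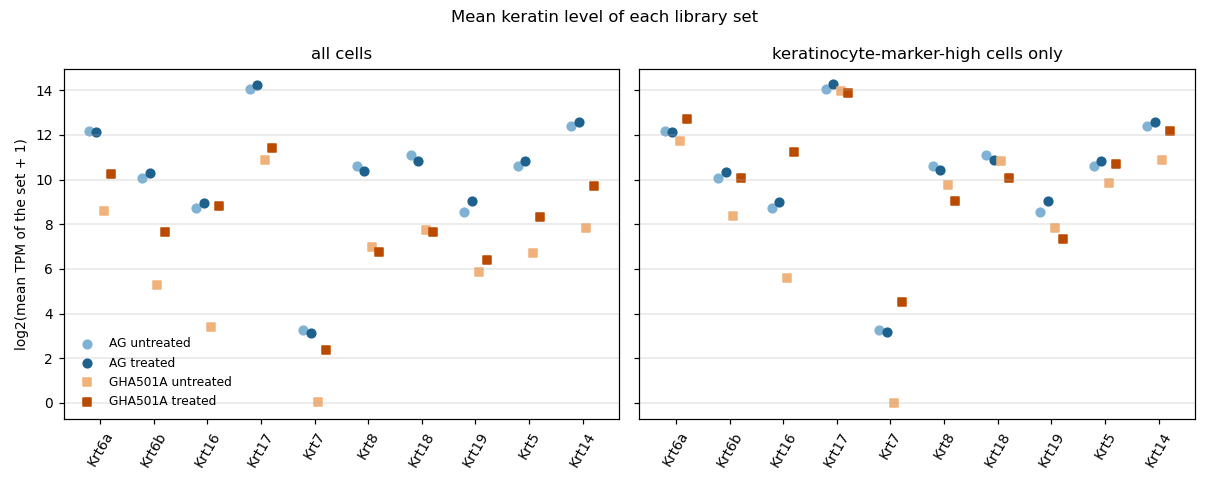
log2(mean TPM of the set + 1) of the 8 members, Krt5 and Krt14 in each of the 4 library sets, for all cells (left) and for keratinocyte-marker-high cells only (right), 1 point per set. With all cells both AG sets lie above both GHA501A sets for each member but Krt16, and among keratinocyte-marker-high cells the sets of Krt6a and Krt17 lie close together.

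Among keratinocyte-marker-high cells the values of the 2 series overlapped. Krt17 ran over 5112, 12293 and 36820 TPM (lowest, median, highest) in the 8 untreated and 1034, 13991 and 43669 in the 12 treated GHA501A cells, within the AG range. Krt6a had medians of 2976 and 4054 TPM there, and Krt18 of 1581 and 614, all inside the range of AG cells. With limma on these cells, 3.29% of the 12355 genes were called higher in AG, 7.79% lower and 11.1% either way, and none of the 8 members was called, nor had any an unadjusted p under 0.05. The differences, AG minus GHA501A, were -0.05 (SE 0.59) for Krt6a, 0.25 (SE 0.54) for Krt17, 0.53 (SE 0.55) for Krt18, 0.97 (SE 0.64) for Krt6b, 1.10 (SE 0.55) for Krt8 and 1.20 (SE 0.59) for Krt19. With errors of this size, missing the threshold does not show equal levels. Krt16 (0.43, SE 1.37) and Krt7 (0.97, SE 1.21) had untreated GHA501A means below and treated ones above those of AG. For Krt16 the treated mean rested on 1 of 12 cells, which held 80.1% of the sum, while 8 of 8 untreated and 9 of 12 treated GHA501A cells lay under the lower of the AG medians (337), with medians of 17.4 and 61.6 TPM. Its difference was -2.38 without the untreated GHA501A set and 3.25 without the treated one. These fits leave 1 GHA501A set and take the spread from the AG sets, so no call is read from them.

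The 8 members were set beside genes of related roles in both series comparisons with limma. Of all 12355 genes, 10.8% were higher and 18.2% lower in AG over all cells. In keratinocyte-marker-high cells the shares were 3.29% and 7.79%, and each list is to be read beside these. Of 13 other keratins tested, 7 were higher in AG over all cells and 0 lower, led by Krt42 (5.74), Krt15 of basal follicle cells (4.12) and Krt14 (3.69), and in keratinocyte-marker-high cells 3 were higher, Krt42 (3.36), Krt75 and Krt79. The last pair, both known from the hair follicle, was listed at 0 in every GHA501A cell and so has no fold. Of 10 genes linking keratin filaments to junctions, 3 were higher and 4 lower over all cells. The desmosome genes Pkp1 (4.35), Dsp (3.89) and Jup (3.10) were higher, while Plec fell by 5.71, and in keratinocyte-marker-high cells Plec (-5.06), Pkp3 (-3.79) and Dst (-3.43) were lower and 0 higher.

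Genes of simple epithelia resembled the members over all cells, with 9 of 17 higher and 2 lower in AG. Cdh1 (3.81) and the claudin gene Cldn6 (3.49) were higher, and Elf3, an epithelial ETS factor, fell by 4.78 together with the protease inhibitor gene Spint2 (-3.46), which were also the 2 called in keratinocyte-marker-high cells (-7.44 and -6.14). Genes of wound-activated epidermis went both ways. Of 19 tested, 5 were higher and 6 lower, with Sprr1a (4.05) and Pthlh (3.73) higher and Cd44 (-5.62) and Fosl1 (-3.73) lower, and in keratinocyte-marker-high cells Cd44 (-6.97) and Itgb6 (-4.27) were lower and 0 higher. Of 16 regulators of keratin genes, 2 were higher and 4 lower over all cells, near the shares of all genes (10.8% and 18.2%). Those called were led by Tfap2a (-3.32), Zeb1 (-2.82), Hes1 (2.61) and Cebpb (-2.22), and 0 were called in keratinocyte-marker-high cells. In AG cells Elf3, Spint2 and Cd44 were at medians between 0 and 0.236 TPM. As with Plec, these low AG values may not be low transcript levels.

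Markers of other cells that make these keratins were measured too. Of 4 tested Merkel cell genes, Piezo2 (3.25) and Sox2 (3.06) were higher in AG over all cells and Piezo2 (3.38) in keratinocyte-marker-high cells, and the summed level of the list was 117.8 and 45.1 TPM in untreated and treated AG cells against 7.33 and 12.0 in GHA501A. Krt20, the keratin that defines that cell, was detected in 1 of 66 and 0 of 64 AG cells, and its factor Atoh1 in 2 and 3, with 911.9 TPM in 1 untreated cell. Hair follicle and gland genes were widely detected, with a summed level of 820 and 605 TPM in AG and 470 and 466 in GHA501A. The largest part in AG was Sox9, a factor of follicle cells with medians of 475 and 362 TPM, detected in 66 of 66 and 63 of 64 AG cells. Sox9 was not particular to AG, being detected in 70 of 71 and 69 of 69 GHA501A cells at medians of 209 and 131 TPM. Of the 9 genes, 3 were higher and 1 lower in both comparisons, among them Tfcp2l1 (3.53 and 3.03), with Cd34 lower (-4.34 and -5.37). Fibroblast markers were lower in 7 of 8 over all cells and called in 0 of 8 among keratinocyte-marker-high cells. The lists of 4 pericyte and smooth muscle genes (Cnn1 -1.93 over all cells, Acta2 4.72 in keratinocyte-marker-high cells), 1 leukocyte gene (Lyz2, -2.42 over all cells) and 3 melanocyte genes (Mitf, -2.71 over all cells) each had 1 gene called over all cells or in keratinocyte-marker-high cells, and of the endothelial genes Kdr and Tek were measured, with a summed level of at most 0.448 TPM. The part of Merkel or gland cells in the AG levels of Krt8, Krt18 and Krt19 was not tested.

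Within GHA501A the levels of the members were set against cell class, and none passed the test. Krt17 was detected in 54 of 62 untreated and 48 of 55 treated fibroblast-marker-high cells, at medians of 12.1 and 17.4 TPM. Krt6a was detected in 35 of 62 and 47 of 55 at medians of 1.34 and 10.4, and Krt18 in 15 and 12 at a median of 0. By limma over the 2 sets with set as a block, keratinocyte-marker-high cells exceeded fibroblast-marker-high cells by 7.94 (SE 0.93) on the log2 scale for Krt6a, 7.62 (SE 0.56) for Krt17, 7.56 (SE 0.43) for Krt18, 7.29 (SE 0.55) for Krt6b, 4.77 (SE 0.26) for Krt8 and 4.74 (SE 1.13) for Krt16. Krt7 (1.94, SE 1.38) and Krt19 (1.92, SE 0.52) showed the smallest differences of the 8. No gene of the 12355 was called in this fit (0% of genes, 1638 with an unadjusted p under 0.05), and of the 8 members 0 were called and 6 had an unadjusted p under 0.05.

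In fibroblast-marker-high cells Krt8 and Krt19 kept a larger share of the keratinocyte-marker-high level than Krt6a, Krt17 and Krt18. Mean TPM there, as a percentage of the keratinocyte-marker-high mean of the same set, was 0.134 (untreated) and 1.00 (treated) for Krt6a, 0.298 and 0.840 for Krt17 and 0.316 and 0.670 for Krt18. Single cells held 52.8% and 84.99% of the Krt18 sum of fibroblast-marker-high cells, and without them Krt18 was at 0.152 and 0.102. The 9 keratinocyte markers had medians of 0.485 and 0.517, and ranged from 0.0726 to 1.19 and from 0.221 to 2.39. Krt8 was at 3.29 and 3.79, and Krt19 at 16.3 and 41.5, both above the whole range of the markers in each set. The markers, unlike the members, were used to make the classes, which by itself keeps their percentages low. How much of the gap this makes was not tested. The untreated Krt19 value has a keratinocyte-marker-high mean that took 75.5% from 1 of 8 cells. Without the highest cell of each class Krt19 was at 46.99 and 53.5 and Krt8 at 3.12 and 3.71, and the highest marker at 1.23 and 1.61. Krt16 was at 9.68 in untreated and 1.18 in treated cells, the former resting on 3 of 62 cells in which it was detected, and at 5.23 and 3.01, then also above the markers, without the highest cell of each class.

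A minority of fibroblast-marker-high cells carried this signal. Krt19 exceeded 100 TPM in 6 of 62 untreated and 10 of 55 treated cells, with 79.9% and 91.7% of its sum, and at most 471 and 738 TPM. In those cells Krt5 had medians of 0 and 4.31 TPM and Krt14 of 2.97 and 6.74, while Col1a1 had 781 and 816 and Vim, the intermediate filament gene of mesenchymal cells, 1237 and 1538. Krt8 exceeded 100 TPM in 5 and 5 cells, where Krt5 medians were 0 and 2.14 and Col1a1 medians 1611 and 1601. The median cell high in Krt19 or Krt8 was thus low in Krt5 and Krt14. Krt18 passed 100 TPM in 1 cell of each set, and these cells had Krt14 at 93.3 and 793 TPM and Krt5 at 0 and 64.9. In the remaining cells Krt14 had medians of 1.88 and 6.33. Krt8 without detected Krt18 was found in 19 of 62 and 18 of 55 fibroblast-marker-high cells against 12 and 10 with both.

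**Figure D5:**
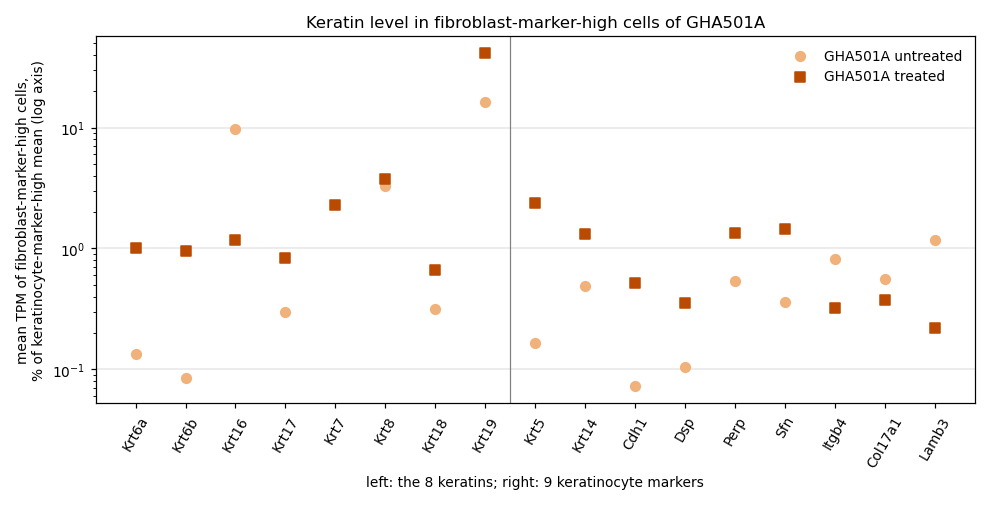
Mean TPM of fibroblast-marker-high GHA501A cells as a percentage of the mean of keratinocyte-marker-high cells of the same set (log axis), for the 8 members (left of the line) and 9 keratinocyte markers (right), 1 point per set. Krt19 (16.3 and 41.5) and Krt8 (3.29 and 3.79) lie above all markers in both sets, but the markers were used to make the classes and the members were not. Krt7 has no untreated point because it was listed at 0 in the 8 keratinocyte-marker-high cells.

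The effect of 4-OHT was asked of both series, and no member passed the test. By limma with series as a block, 0% of 12355 genes were called (0 genes, 459 with an unadjusted p under 0.05), and 0 of the 8 members had an unadjusted p under 0.05. Log2 differences, treated minus untreated, were 0.79 (SE 0.52) for Krt6a, 1.31 (SE 0.59) for Krt6b, 2.80 (SE 1.26) for Krt16, 0.34 (SE 0.33) for Krt17, 1.10 (SE 0.67) for Krt7, -0.21 (SE 0.33) for Krt8, -0.18 (SE 0.33) for Krt18 and 0.51 (SE 0.33) for Krt19, each with an adjusted p of 0.998. In AG alone, with 1 set per treatment and so no test, all 8 differences lay between -0.27 (Krt18) and 0.52 (Krt19). In GHA501A, Krt6a was higher in the treated set by 1.64, Krt6b by 2.37, Krt16 by 5.39 and Krt7 by 2.33. Krt5 was higher by 1.61 and Krt14 by 1.90. The differences were 0.51 for Krt19, 0.50 for Krt17, -0.19 for Krt8 and -0.09 for Krt18. Of the treated cells 12 of 69 were keratinocyte-marker-high, and of the untreated 8 of 71. The part of this in the differences was not tested. Without the highest cell of each set the differences were 1.67 for Krt6a, 1.41 for Krt6b, 3.77 for Krt16 and 1.41 for Krt7, as 1 cell held 64.1% of the treated Krt6b sum.

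The large Krt16 value owed much to 1 cell, but not all of its size. Without the highest cell of each set the GHA501A difference was 3.77. Krt16 was detected in 12 of 71 untreated and 33 of 69 treated GHA501A cells. A treated GHA501A cell had 23263 TPM of Krt16, which is 76% of the sum of its set, and the next cell had 3102. The same cell was the highest in Krt6b (8748) and the second highest in Krt6a (21665) and Krt14 (10582), with 10891 TPM of Krt17, and its Col1a1 stood at 8.57. Without the highest cell of each gene in each set, chosen as an alternative after seeing the data, the treatment difference of Krt16 was 2.0 (SE 0.87), and that between the series over all cells passed the test (3.88, adjusted p = 0.027 by limma).

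Detection of stress keratins in fibroblast-marker-high cells also differed between the GHA501A sets. Krt6a was detected in 56.5% of untreated and 85.5% of treated cells, Krt6b in 8.06% and 38.2% and Krt16 in 4.84% and 36.4%. Krt17 (87.1% and 87.3%), Krt8 (50% and 50.9%), Krt18 (24.2% and 21.8%) and Krt19 (41.9% and 41.8%) were detected in nearly equal shares. Krt5 (32.3% and 70.9%), Krt14 (61.3% and 89.1%) and Sfn (32.3% and 76.4%) were also detected in more treated cells. So were 7 of 9 keratinocyte markers, 6 of 8 fibroblast markers and 6 of the 8 members, some by small margins. Itgb4 and Lamb3 went the other way, at 3.23% and 1.82%. With 1 set per treatment these shares have no replicate check, and RNA from other cells, which could give low values in any cell, was not tested.

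Krt7 is a keratin of glandular and other simple epithelia. AG cells with it had higher medians of Krt8 and Krt18 in both sets, and of Krt19 only in the treated set. None of these differences was tested. In untreated AG cells the 18 with Krt7 had medians of 985 TPM of Krt8, 1459 of Krt18 and 227 of Krt19, against 933, 1241 and 306 in the 48 without. In treated AG cells the 15 with Krt7 had medians of 845 TPM of Krt8, 2792 of Krt18 and 833 of Krt19, against 767, 1072 and 272 in the 49 without. The partner Krt18 was detected in all 18 and all 15, against 63 of 66 and 60 of 64 of all untreated and treated AG cells. The numbers of genes detected were 6403 and 6515 in the median Krt7 cell, and 6144 and 6369 in the median cell without it. In keratinocyte-marker-high GHA501A cells Krt7 was listed at 0 in all 8 untreated cells and detected in 2 of 12 treated ones, at 176 and 85.4 TPM.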

How the data were processed

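Single cells had been captured on a microfluidic chip (C1), with doublets excluded by the authors from images, and full-length cDNA libraries were sequenced as paired reads of 100 bases. The deposited values are TPM: the authors trimmed the reads with Cutadapt, aligned them to GRCm38 with Tophat keeping only unique alignments, and counted genes with featureCounts. TPM keeps no depth, so none is given per cell. Of 294 columns, 16 matched none of the labels and stayed out, and 8 AG cells whose name and treatment label conflict entered only as alternatives. No 2 cells held identical values.

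The members and gene lists were chosen with earlier results of these data known, and support nothing by themselves. The mean TPM of each library set was taken as log2(mean + 1) for the 12355 genes whose TPM exceeded 1 in over 5 cells, and compared with limma 3.58.1 in R 4.3.3 (two-sided, Benjamini-Hochberg), with the other factor as a block. Of these genes 301 were at 0 in every cell of 1 series. The class fits used keratinocyte-marker-high and fibroblast-marker-high cells of each set. Each main fit had 1 residual degree of freedom, to which limma added a prior taken from all genes. This prior was worth 3.51 degrees over all cells, 1.15 between the classes and 3.59 between the series in keratinocyte-marker-high cells. Genes named are the 8 members, Krt5 and Krt14, the 3 genes most like each member in each series, and from each list the called genes, at most 4 of the largest change, or any gene of a list with 5 or fewer measured. Vim, Lamb3, Krt20, Atoh1, Gm11597 and Krt8-ps were named after their values were seen. Some genes that this rule picks are not reported here. The fits were also run on simulated data, and the outcome is not reported here.

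Sequence identity and shared windows were computed from the coding sequences and transcripts of GENCODE release M21. Alternatives were another pseudocount, other filters on genes and cells, the mean of log2 values, the 8 cells by label or by name, other class limits and detection limits, each set left out, no replicate block and all keratins summed. Set and class means without the highest cell, the counts of cells past a level given with them, and genes above 0 in both series were added after seeing the data. Other values were computed with pandas 2.3.3, numpy 2.4.6 and scipy 1.17.1 under Python 3.11.15, and plotted with matplotlib 3.10.9.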

Additional observations from a re-analysis of the deposited data

Results flagged for a closer look

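The 4-OHT difference had opposite signs in the series for 2 members. Krt6a was at log2 means of 12.19 untreated and 12.12 treated in AG (-0.07), and at 8.60 and 10.24 in GHA501A (1.64), so that the GHA501A difference exceeded the AG difference by 1.71. Krt7 was at 3.29 and 3.15 in AG (-0.14), and at 0.04 and 2.38 in GHA501A (2.33), a gap of 2.47 between the differences. The treated GHA501A value of Krt7 took 90.01% of its sum from 2 of 69 cells, and without the highest cell of each set the Krt7 difference was 1.41 in GHA501A and -0.64 in AG. With 1 set per series and treatment, neither gap was tested.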

How the results depend on the processing

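Under the alternatives the members' log2 fold changes between the series over all cells turned sign 0 times, lost the call 9 times and gained it 7 times, those for 4-OHT turned sign 14 times with 0 calls, those between the classes turned 0 times with 0 calls, and those between the series in keratinocyte-marker-high cells turned 5 times, once with a call (Krt16), and gained a call without turning 2 times (Krt16 and Krt7). Leaving out 1 set at a time gave 2 to 8 members and 1023 to 2229 genes called between the series over all cells, against 6 and 3580, and the mean of log2 values gave 8 and 5539. In keratinocyte-marker-high cells leaving out 1 set gave 0 to 2 members and 0 to 2758 genes, against 0 and 1369, while no filter on low values gave 0 genes and leaving out the highest cell 696. With 4-OHT the sign turned in leave-one-out fits, over -1.01 to 2.58 for Krt6a, -1.08 to 3.71 for Krt6b, -1.24 to 1.92 for Krt17, -0.52 to 2.72 for Krt7, -2.03 to 1.62 for Krt8, -1.87 to 1.51 for Krt18 and -0.82 to 1.84 for Krt19, and for Krt8 with the mean of log2 values (0.10). In keratinocyte-marker-high cells Krt6a turned over -0.53 to 0.44, with at least 5500 genes per cell (0.13) and without the highest cell (0.20), Krt16 over -2.38 to 3.25 and Krt7 over -1.29 to 3.23. The cause of the turns in fits with all sets was not tested. Fits with 1 set left out had no degree of freedom to spare for the block and were run without it. Their 4-OHT differences therefore also hold part of the difference between the series, and their series differences part of that between treatments. In each such fit the lone set left in a series is assumed to vary like the sets of the other series. Without the replicate block 6 members and 3853 genes were called between the series over all cells, and 0 members in the other 3 comparisons, so the block changed no member's call. A single GHA501A set left out leaves no degree of freedom between the classes, and that fit was not run.

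Detection at TPM over 10 gave both Krt8 and Krt18 in 16.9% and 17.4% of untreated and treated GHA501A cells (29.6% and 30.4% at over 1), and Krt6a with Krt16 in 21.7% of treated ones (46.4% at over 1). With at least 5500 genes per cell the latter pair was found in 98% and 100% of AG cells. The depth of a cell is unknown, which limits all low values.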

Other observations

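The 8 AG cells whose library name and treatment label disagree had all of the stress keratins detected except Krt6b in 1 of them. The 5 labelled treated had Krt17 at 10153 to 40653 TPM (median 18633), Krt6a at 276 to 2469 (median 1079) and Krt19 at 67.6 to 204 (median 117). The 3 labelled untreated had Krt17 at 5979 to 21219 TPM (median 11954), Krt6a at 3644 to 11028 (median 8913) and Krt19 at 573 to 2124 (median 1925). These groups of 5 and 3 cells carry no replicate set of their own, and differences between them were not tested. Krt7 was detected in 1 of the 8.

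Of 4 cells with a marker score between the classes, the untreated GHA501A cell had 5137 TPM of Krt17 beside 629 of Krt14, with Krt6a, Krt6b and Krt5 listed at 0. The AG cell of this kind had 2843 TPM of Krt17, 685 of Krt19 and 2838 of Vim, with Krt6a at 2.04.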
